A study of Mus musculus with 24 samples.

Results

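The genes of cholesterol synthesis, uptake and efflux were read across carotid arteries of ovariectomized mice given vehicle or 1 of 3 estrogen receptor ligands. The 32 genes, out of 55421 in the count tables, were those whose Ensembl identifier carries 1 of 32 listed symbols in the GENCODE M21 annotation, a rule that uses no expression value. They comprise 16 enzymes of the mevalonate and sterol pathway, 6 genes of sterol sensing, and 10 genes of lipoprotein uptake, cholesterol efflux and storage and the liver X receptors (LXR). RNA was sequenced from uninjured carotid arteries of female C57BL/6 mice, 6 per group, labelled as 9 weeks old. All mice were ovariectomized, and the groups were vehicle (OVX), 17β-estradiol (E2), estetrol (E4, a natural estrogen with more hydroxyl groups than E2) and tamoxifen (TAM, a selective modulator of the estrogen receptor). The study's methods describe the hormone pellets, vehicle included, as made with cholesterol as the carrier, so every pellet-bearing group, controls among them, carried a cholesterol implant; how tamoxifen was given and its dose were not stated in the sources used here. The pellet amounts of E2 and E4 differed and were set, by the study's account, for a like estrogenic effect on the uterus, and the length of treatment is stated differently by the labels and the methods. The 6 E4 libraries carry a placebo entry in their treatment field and were placed in the E4 group by their titles. The study's figure of these data states fewer than 6 per group for vehicle and E4. Which libraries it used is not given in the sources used here.

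Cells make cholesterol from acetyl-CoA through the mevalonate pathway, and they take it up from lipoproteins. When membrane sterol is low, the chaperone Scap carries the SREBP transcription factors (encoded by Srebf1 and Srebf2) from the endoplasmic reticulum to the Golgi, where they are cleaved and released to switch on the synthesis genes. Insig1 and Insig2 hold Scap back when sterol is plentiful, and Insig1 is itself an SREBP target. Oxysterols activate LXR, encoded by Nr1h3 and Nr1h2, which switch on the efflux transporters Abca1 and Abcg1. In the artery wall, smooth muscle cells and macrophages export or esterify the cholesterol that they take up.

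The counts of a library summed to between 24647246 and 64221401. Among low whole counts, odd values were fewer than even ones (ratio 0.761 in TAM C35 to 0.875 in E4 C16). Whether the mates of a pair were counted separately is not stated in the sources used here. Smooth muscle markers were abundant in every group (summed level of 5 genes, 2240 to 8022 CPM, that is counts per 1000000 after TMM scaling), and no gene of the list was at 0. The whole tissue also held sympathetic neuron transcripts, and 2 libraries stood apart in these. The mean log2 CPM of 8 sympathetic neuron genes (among them Th, Dbh and Slc6a2, of noradrenaline synthesis and reuptake), here called the neuron level, was 1.01 in OVX C5 against 7.41 to 8.54 in the other OVX libraries, and 3.81 in TAM C35 against 8.39 to 8.92 in the other TAM libraries. All 8 genes were below every other library of the group in both. In bulk RNA of this kind, fewer cells of a type and less RNA per cell cannot be told apart.

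All 32 genes passed the filter on low counts and were tested. Per kilobase of exon, Apoe, the apolipoprotein that carries cholesterol away from macrophages, was the most abundant, with a median of 486 CPM per kilobase over 24 libraries. It was followed by Hmgcs1, the synthase that makes the precursor of mevalonate (101), the lysosomal sterol carrier Npc2 (58.2) and Insig1 (55.1). The least abundant were Abcg1 (3.24), the cholesterol-esterifying enzyme Soat1 and the lysosomal exporter Npc1 (4.08), and the median of Fdps (4.09) was as low, although 26.7% of its exon bases overlap another annotated gene on the same strand. Between libraries, the levels of Insig2 (highest over lowest, 1.25), Ebp (1.33) and Npc2 (1.35) varied least, and those of Sqle (6.92), Mvd (5.36) and Hsd17b7 (4.71) varied most.

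Of the 32 genes, Insig1 was the one that differed from vehicle in all 3 treatments. Insig1 (ENSMUSG00000045294, chr5:28071363-28078662, plus strand, GRCm38) encodes the reticulum protein that retains Scap. It stood at 205, 263 and 343 CPM (lowest, median and highest of 6 libraries) in OVX mice, at 137, 166 and 173 CPM in E2-treated mice, at 126, 140 and 164 CPM in E4-treated mice, and at 148, 172 and 190 CPM in TAM-treated mice. Every treated library lay below every OVX library, whereas the 3 treated groups overlapped one another.

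The level of Insig1 fell by 38.1% in E2-treated mice as compared with vehicle (log2 fold change -0.69, SE 0.12, adjusted p = 0.00133 over all genes, edgeR). It fell by 45.8% in E4-treated mice (-0.88, SE 0.12, adjusted p = 0.000409), and it fell by 34.4% in TAM-treated mice (-0.61, SE 0.11, adjusted p = 0.00784). These 3 comparisons share the OVX libraries. In the direct comparisons, the difference between E4 and E2 was -0.19 (SE 0.12, adjusted p = 0.267) and that between TAM and E4 was 0.27 (SE 0.11, adjusted p = 0.422), neither of which passed the test.

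In the 2 libraries with a low neuron level, Insig1 stood at 256 CPM (OVX C5, with a median of 269 in the other OVX libraries) and at 175 CPM (TAM C35, against 169). Without these libraries the log2 fold changes were -0.70 for E2, -0.89 for E4 and -0.61 for TAM, with adjusted p = 0.00128, 0.000377 and 0.0171. The call was kept with each library left out in turn. Animal numbers fall in a series up to 20 and a series above 20, which the labels do not call batches. Within them the log2 fold change of Insig1 was -0.89 and -0.81 for E4, -0.80 and -0.53 for E2, and -0.74 and -0.41 for TAM, with E4 alone past the test in each (adjusted p = 0.0433 and 0.0412). With only the OVX and TAM libraries in the fit, 39 of 24113 genes and none of the 32 passed for TAM, and the log2 fold change of Insig1 was -0.61 as before (SE 0.13, adjusted p = 0.0801). With the level of 5 B cell genes as a covariate, the call was kept for E2 (-0.64, adjusted p = 0.00729) and lost for E4 (-0.76, adjusted p = 0.118) and TAM (-0.57, adjusted p = 0.181).

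**Figure D1:**
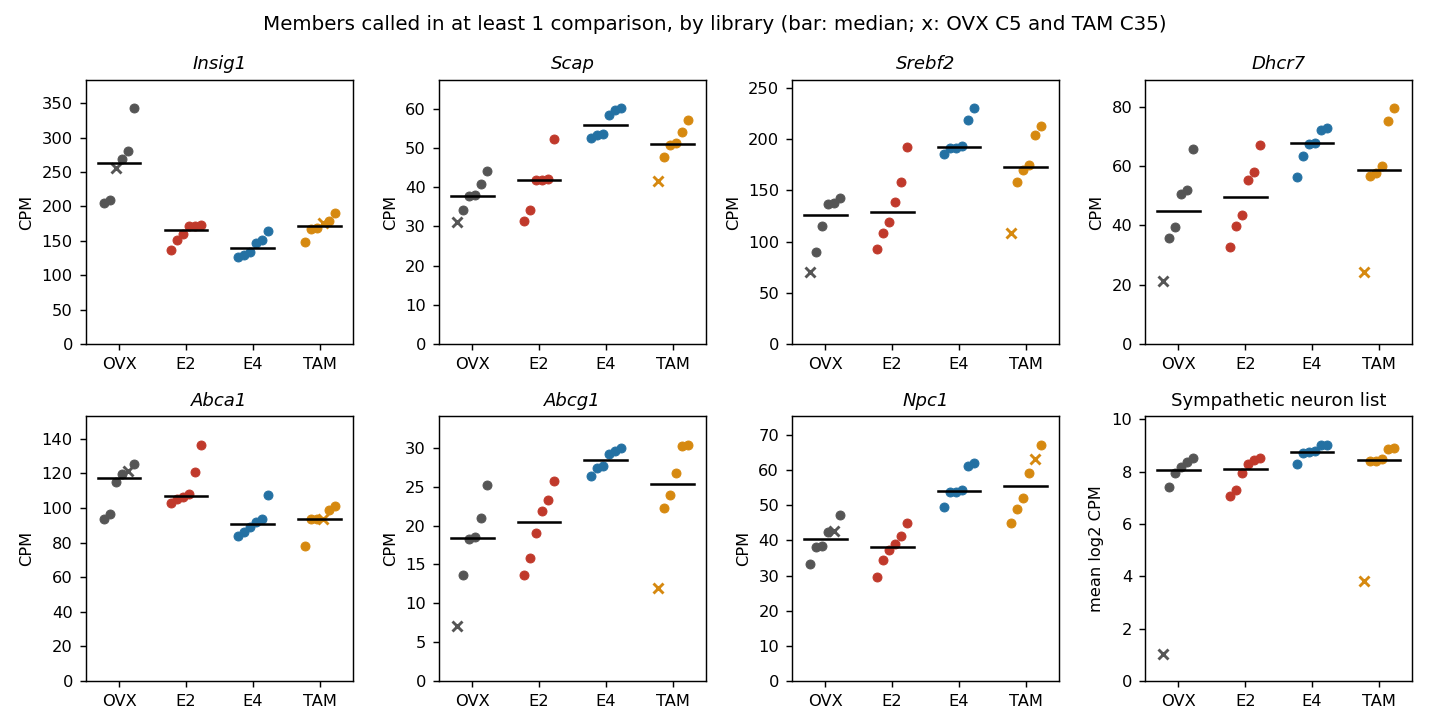
Levels in CPM of the 7 genes called in at least 1 comparison, and the neuron level (mean log2 CPM of 8 genes), with 1 point per library, 6 per group, a bar at the median and crosses for OVX C5 and TAM C35. All 18 treated libraries lie below the 6 OVX libraries for Insig1 (highest treated value 190 CPM, lowest OVX value 205 CPM), and the E4 libraries of Srebf2 (185 to 230 CPM) lie above all OVX libraries (70.0 to 143 CPM).

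The stretches before the transcription start of Insig1, of Hmgcs1 and of Srebf2 are shown because the first is the gene lowered in every treatment, the second is the most abundant enzyme, and the third encodes the SREBP that drives the synthesis genes. They are the 250 bases before the RefSeq start, on the plus strand of GRCm38.p6, at chr5:28071162-28071411, chr13:119690101-119690350 and chr15:82147019-82147268. GENCODE places the starts of Insig1 (28071363) and Srebf2 (82147181) earlier, so the ends of these 2 stretches lie inside the annotated genes. Capitals mark the sterol regulatory element written as TCACNCCAC and the NF-Y box CCAAT, on either strand.
Insig1: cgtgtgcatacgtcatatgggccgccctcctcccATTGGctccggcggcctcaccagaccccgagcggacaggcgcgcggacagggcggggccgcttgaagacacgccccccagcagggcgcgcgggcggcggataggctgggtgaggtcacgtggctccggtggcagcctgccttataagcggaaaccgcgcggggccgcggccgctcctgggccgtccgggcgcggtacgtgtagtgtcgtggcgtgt
Hmgcs1: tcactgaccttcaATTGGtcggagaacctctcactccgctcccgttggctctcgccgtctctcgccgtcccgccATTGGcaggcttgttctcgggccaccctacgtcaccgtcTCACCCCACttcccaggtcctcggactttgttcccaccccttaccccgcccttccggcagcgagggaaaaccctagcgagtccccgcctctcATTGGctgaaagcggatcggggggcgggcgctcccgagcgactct
Srebf2: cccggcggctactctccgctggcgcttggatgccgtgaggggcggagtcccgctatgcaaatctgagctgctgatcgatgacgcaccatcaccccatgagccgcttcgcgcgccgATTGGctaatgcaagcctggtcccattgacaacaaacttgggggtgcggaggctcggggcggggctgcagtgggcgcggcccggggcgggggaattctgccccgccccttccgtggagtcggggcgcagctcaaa

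In the RefSeq windows of 250 bases before to 50 after a start, 36 windows belonged to 25 of the 32 genes. The letters TCACNCCAC occurred in 1 of the 36 windows (2.78%), that of Hmgcs1 at position -137 from the start, and in 1.24% of all 32851 windows. The NF-Y box CCAAT occurred in 58.3% of the windows of these genes and in 37.4% of all windows, and the Sp1 box GGGCGG in 69.4% and 35.7%. The repeat of AGGTCA with 4 bases between its copies, bound by LXR, occurred in 0 of the 36 windows and in 5 of all windows (0.0152%). None of the 4 words contains another, both strands were searched, and a match of letters is a description and not a bound site. Each word was searched in 1 spelling, so a window without a match may still hold a variant of it.

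E4 changed 7 of the 32 genes as compared with vehicle. The 5 that rose (Srebf2, Scap, Dhcr7, Abcg1 and Npc1) were 15.6% of the 32, against 9.65% of all 24669 genes tested, and the 2 that fell (Insig1 and Abca1) were 6.25%, against 12%. Neither share lay far from its background, and none of the 7 passed a log2 fold change of 1 in size. Over the 32 genes the median log2 fold change was 0.10, beside -0.01 over all genes tested, and 0.04 without OVX C5 and TAM C35.

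Srebf2 (ENSMUSG00000022463, chr15:82147181-82205379, plus strand) encodes the SREBP that drives sterol synthesis. It stood at 70.0, 126 and 143 CPM in OVX mice, at 92.9, 129 and 192 CPM in E2-treated mice, at 185, 192 and 230 CPM in E4-treated mice, and at 109, 172 and 213 CPM in TAM-treated mice. The E4 libraries lay above every OVX library, and they overlapped the E2 and TAM libraries. The level was 74.3% higher with E4 than with vehicle (log2 fold change 0.80, SE 0.18, adjusted p = 0.00637), and 48.5% higher than with E2 (0.57, SE 0.18, adjusted p = 0.0467). Without OVX C5 and TAM C35, the value against vehicle was 0.69 (adjusted p = 0.00838). The difference of TAM from vehicle was 0.57 (SE 0.18, adjusted p = 0.0844) and did not pass. The call against E2 was kept with only 6 of the 18 libraries left out (OVX C2, C3, C4 and C5, E2 C27 and C29), and its log2 fold change then ranged from 0.48 to 0.70 over all 18.

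Scap (ENSMUSG00000032485, chr9:110333288-110384950, plus strand), the SREBP chaperone, followed the same order of groups. Its level was 31.1, 37.8 and 44.0 CPM in OVX mice, 31.5, 41.9 and 52.4 CPM in E2-treated mice, 52.6, 56.0 and 60.1 CPM in E4-treated mice, and 41.6, 51.0 and 57.0 CPM in TAM-treated mice. The E4 libraries lay above all OVX and all E2 libraries. The log2 fold change was 0.57 for E4 against vehicle (SE 0.11, adjusted p = 0.00261), 0.46 for E4 against E2 (SE 0.11, adjusted p = 0.013) and 0.42 for TAM against vehicle (SE 0.10, adjusted p = 0.0392). Another annotated gene on the opposite strand covers 13.2% of the exon bases of Scap, and whether counting used strand is not stated in the sources used here.

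Npc1 (ENSMUSG00000024413), which exports cholesterol from the lysosome, was higher with E4 and with TAM than with vehicle, and higher with both than with E2. Its level was 33.2, 40.5 and 47.3 CPM in OVX mice, 29.6, 38.1 and 44.9 CPM in E2-treated mice, 49.6, 54.2 and 62.2 CPM in E4-treated mice, and 44.9, 55.6 and 67.3 CPM in TAM-treated mice. The E4 libraries lay above all OVX and all E2 libraries, and the TAM libraries overlapped both. The log2 fold change against vehicle was 0.46 for E4 (SE 0.10, adjusted p = 0.00494) and 0.46 for TAM (SE 0.11, adjusted p = 0.0272), and it was -0.09 for E2 (SE 0.10, adjusted p = 0.748). Against E2, the level was 46.9% higher with E4 (0.55, SE 0.10, adjusted p = 0.00216) and 47.0% higher with TAM (0.56, SE 0.11, adjusted p = 0.00175). In contrast to Srebf2, Npc1 was not low in OVX C5 (42.8 CPM) or TAM C35 (63.1 CPM). Genes on the opposite strand overlap 5.31% of its exon bases.

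The ABC transporters of cholesterol efflux moved in opposite directions with E4. Abcg1 (ENSMUSG00000024030, chr17:31057675-31117988, plus strand), which exports cholesterol to high-density lipoprotein, stood at 7.12, 18.4 and 25.2 CPM in OVX mice, at 13.6, 20.5 and 25.7 CPM in E2-treated mice, at 26.5, 28.5 and 29.9 CPM in E4-treated mice, and at 12, 25.4 and 30.4 CPM in TAM-treated mice. The E4 libraries lay above all OVX and all E2 libraries, and the log2 fold change against vehicle was 0.71 (SE 0.21, adjusted p = 0.0263), or 0.55 without OVX C5 and TAM C35 (adjusted p = 0.0187). The call was lost without OVX C3 or without E4 C20, and the log2 fold change ranged from 0.55 to 0.84 over the libraries left out. Abca1 (ENSMUSG00000015243, chr4:53030787-53159895, minus strand), which loads cholesterol onto lipid-poor apolipoprotein, stood at 93.9, 118 and 126 CPM in OVX mice, at 103, 107 and 137 CPM in E2-treated mice, at 84.1, 90.6 and 108 CPM in E4-treated mice, and at 77.8, 93.5 and 101 CPM in TAM-treated mice. The E4 libraries overlapped the OVX and the E2 libraries, while the TAM libraries lay below all E2 libraries.

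The log2 fold change of Abca1 was -0.29 for E4 against vehicle (SE 0.09, adjusted p = 0.0315), -0.31 for E4 against E2 (SE 0.09, adjusted p = 0.038) and -0.29 for TAM against E2 (SE 0.09, adjusted p = 0.0474). The first call was lost without OVX C5, C24 or C25 or without E4 C19, C20, C36 or C38, and the log2 fold change over libraries left out ranged from -0.34 to -0.25. The second was lost without E2 C6, C8 or C9 or without any E4 library other than C16 (-0.36 to -0.25), and the third was kept with only 7 of 24 libraries left out: OVX C3, C4, C5 and C25, E2 C26 and C29, and E4 C16 (-0.32 to -0.23).

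Dhcr7 (ENSMUSG00000058454, chr7:143823145-143848410, plus strand), the reductase of the last step to cholesterol, was the single enzyme of the 16 called with E4. It stood at 21.2, 44.9 and 65.6 CPM in OVX mice, at 32.9, 49.5 and 67.2 CPM in E2-treated mice, at 56.1, 67.6 and 72.7 CPM in E4-treated mice, and at 24.4, 58.8 and 79.5 CPM in TAM-treated mice. The groups overlapped, and the log2 fold change of E4 against vehicle was 0.59 (SE 0.21, adjusted p = 0.0496). The call was kept only without OVX C2, E2 C8, E2 C29 or E4 C39 among the 18 libraries left out in turn (range 0.45 to 0.73). Without OVX C5 and TAM C35 together it was 0.45 and not called (adjusted p = 0.0656). Of 14 alternative settings, 3 kept the call. It was also lost with all 24 libraries in the fit and with the animal number series as a covariate. Mvk (0.47, SE 0.18), Sqle (0.65, SE 0.30) and Fdft1 (0.28, SE 0.12) had a p under 0.05 before adjustment and not after it (adjusted p = 0.0638, 0.116 and 0.113).

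The E4 libraries also differed from the OVX libraries in markers of other cells. The neuron level ran from 8.28 to 9.03 in E4 and from 7.41 to 8.54 in OVX without C5; the summed level of the 8 genes was 4725 to 8143 CPM against 32.4 to 6087 CPM, and none of the 8 passed the test. All 5 B cell genes were lower with E4 (summed level 15.7 to 28 CPM, against 25.2 to 65.6 CPM in OVX), as were 3 of 6 adipocyte genes (1382 to 2195 CPM, against 1533 to 3711 CPM) and 3 of 5 fibroblast genes (2340 to 3764 CPM, against 3391 to 5172 CPM), with no marker of these lists at 0. Of the 5 smooth muscle genes, Tagln (-0.60) and Smtn (-0.48) were lower with E4 (summed level 2732 to 4674 CPM, against 2240 to 4650 CPM), and of the 5 macrophage genes Mrc1 was lower (-0.55; 159 to 300.1 CPM, against 204 to 365 CPM). The summed level of 6 thyroid and parathyroid genes reached 2937 CPM in E4 (median 16.4), against at most 28.3 CPM in OVX. None of the 3 of these genes tested was called against OVX, and Tg, thyroglobulin, was higher with E4 than with E2 (2.94, adjusted p = 0.0168). With the neuron level as a covariate, Srebf2 (0.57, adjusted p = 0.0121), Scap (0.46, adjusted p = 0.0078), Abcg1 (0.41, adjusted p = 0.0424) and Npc1 (0.46, adjusted p = 0.0112) were called higher with E4 and Insig1 lower (-0.90, adjusted p = 0.000294), and the calls of Dhcr7 (0.29, adjusted p = 0.14) and Abca1 (-0.24, adjusted p = 0.0898) were lost. With the B cell level as a covariate, which nearly separates E4 from OVX, 41 genes of the whole table and 0 of the 32 were called. With the adipocyte level, 2 of the 32 and 1034 of all 24669 genes were called, down from 5348, so that both counts dropped. The 7 Schwann and satellite glial genes summed to 1644 to 3828 CPM with E4, against 1153 to 2136 CPM in OVX, and none was called. Their level was a covariate chosen after seeing the data. With it the calls of Abcg1, Abca1 and Dhcr7 were lost, and 1788 genes were called in all. The part of these cells in the results was not tested further.

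**Figure D2:**
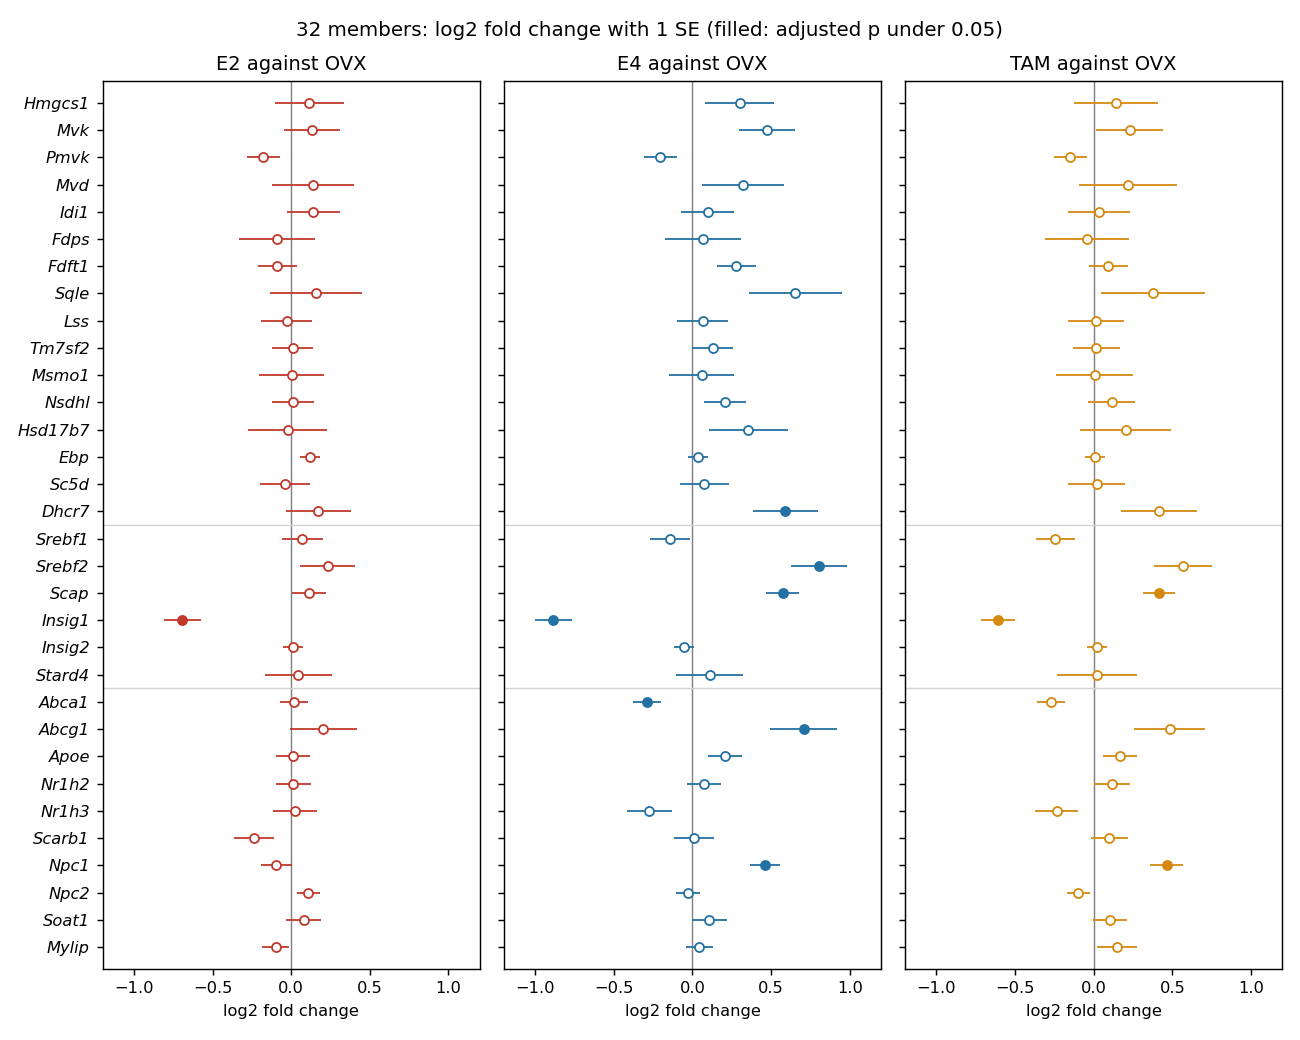
Log2 fold change of the 32 genes against OVX for E2, E4 and TAM, with 1 SE, filled where the adjusted p is under 0.05 and divided by lines into synthesis, sterol sensing, and uptake, efflux, storage and LXR. Insig1 is filled in all 3 panels (-0.69, -0.88 and -0.61), and the E4 panel has 7 filled points.

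With E2, 1 of the 32 genes was called, Insig1, which was lower, against 1.23% of all genes that were lower. None of the 32 was higher, against 2.65% of all genes. The 16 enzymes had log2 fold changes between -0.18 (Pmvk) and 0.17 (Dhcr7), with a median of 0.01 and 10 above 0, and none had a p under 0.05 before adjustment by edgeR. Without OVX C5 and TAM C35, 14 of the 16 were below 0, with a median of -0.08 and a range from -0.27 (Fdps) to 0.11 (Ebp), and none was called. DESeq2 also called Insig1 alone. The macrophage list was raised in the same libraries (4 of 5 genes called, summed level 376 to 504 CPM with E2 and 204 to 365 CPM in OVX, none at 0), and its part in the results was not tested. The log2 fold changes of the efflux members were 0.20 for Abcg1, 0.02 for Abca1 and 0.01 for Apoe, none called.

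With TAM, 3 of the 32 genes were called. Scap and Npc1 were higher, against 1.3% of all 25056 genes tested, and Insig1 was lower, against 0.93%. In the same comparison 2 of 5 B cell genes were called lower (summed level 18.6 to 33.4 CPM with TAM, against 25.2 to 65.6 CPM), as was 1 of 6 adipocyte genes (1434 to 2062 CPM, against 1533 to 3711 CPM), and with the B cell level as a covariate 0 of the 32 and 12 genes in all were called. The calls of Scap and Npc1 depended on single libraries: that of Npc1 was lost without OVX C3, TAM C12 or TAM C33 (log2 fold change 0.40 to 0.52 over all left out), and that of Scap without OVX C2, C3, C5 or C24 or without any TAM library other than C35 (0.37 to 0.48). Without OVX C5 and TAM C35 together, the fold of Npc1 against vehicle was about as large (0.45) and not called (adjusted p = 0.0555), and Scap (0.42, adjusted p = 0.0481) and Insig1 were called.

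Between the ligands, E4 and E2 differed in 4 of the 32 genes. Scap, Srebf2 and Npc1 were higher with E4, against 2.95% of all genes, and Abca1 was lower, against 7.95%. Over all genes 728 of 2690 calls were higher with E4, and 1606 of 3995 by DESeq2, which called the same 4 genes and Fdft1. These counts moved with a library of neither group, since 2496 of 5340 calls over 24840 genes were higher without OVX C5, which shares the fit. TAM and E2 differed in 2, with Npc1 higher, against 1.92% of all genes, and Abca1 lower, against 4.48%. DESeq2 called 4 of the 32 between TAM and E2 with all libraries, and edgeR called 5 without OVX C5 and TAM C35, with Scap (0.36) and Abcg1 (0.42) higher and Npc2 (-0.24) lower in addition. Over all genes the calls rose likewise, from 1604 of 25056 to 2253 of 25009 by DESeq2 and to 3332 of 25210 without the 2 libraries. All 5 macrophage genes were lower with E4 and with TAM than with E2 (summed level 159 to 300.1 CPM with E4, 216.8 to 250.7 CPM with TAM and 376 to 504 CPM with E2). Lower with E4 than with E2 were also 4 of 5 fibroblast genes (2340 to 3764 CPM, against 3375 to 5546 CPM). So were 4 of 5 T cell genes (1.89 to 4.96 CPM, median 2.81, against 2.65 to 244 CPM, median 5.01), whose highest E2 value lay far above the E2 median. None of these markers was at 0, and the part of these cells in the differences was not tested. With the B cell level as a covariate, 0 of the 32 were called between E4 and E2 and 1 between TAM and E2, where 152 of 24669 and 1002 of 25056 genes were called in all. Nerve markers had log2 fold changes above 0 with E4 and with TAM against E2, most of them not called. This held for all 7 glial genes (medians 0.60 and 0.56, 1 called in each). Their summed level was 1644 to 3828, 1363 to 2987 and 562 to 1638 CPM in E4, TAM and E2. It held also for all 8 neuron genes (medians 0.72 and 0.32, none called). With the glial level as a covariate, 0 of the 32 were called between E4 and E2 (158 genes in all) and 1 between TAM and E2 (573 in all). TAM and E4 differed in 0 of the 32 by edgeR, against 0.172% of all genes in each direction, and in 0 by DESeq2, while 1 gene, Insig1, had a p under 0.05 before adjustment. E2 and E4 were matched by their effect on the uterus and not by amount, and the dose of tamoxifen is not known from the sources used here.

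Of the 16 synthesis enzymes, 1 (6.25%) was called higher with E4, below the share of all genes given above, and most of them varied together between libraries. Against vehicle, 15 of the 16 had a log2 fold change above 0 with E4, with a median of 0.17. When OVX C5 and TAM C35 were left out it was 10 of the 16, none of them called, with a median of 0.08 and Lss, the cyclase that forms lanosterol (-0.05), and Sc5d, a desaturase near the end of the pathway (-0.05), among those below 0. With TAM, 14 of the 16 were above 0 with all libraries and without these 2, with medians of 0.06 and 0.07. In OVX C5, 14 of the 16 enzymes, all but Pmvk and Ebp, were below every other OVX library, and in TAM C35, 15 of the 16, all but Pmvk, were below every other TAM library. The same 14 enzymes were lowest in both. How many of all genes were lowest in these 2 libraries was not counted, so these counts stand without a background share.

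Sqle, the squalene epoxidase, stood at 22.2 CPM in OVX C5 and at 61.0 to 118 CPM in the other OVX libraries, and at 29.7 CPM in TAM C35 and at 110 to 144 CPM in the other TAM libraries. Hmgcs1 stood at 168 CPM against 330 to 602 CPM, and at 142 CPM against 444 to 573 CPM. Mvd, the decarboxylase that yields isopentenyl diphosphate, stood at 7.98 CPM against 17.3 to 33.1 CPM, and at 6.87 CPM against 24.9 to 36.3 CPM. For these 3 enzymes both libraries lay below the range of their groups. Pmvk, an early kinase of the pathway, was within the range in both, and Ebp, a late isomerase, was within it in OVX C5.

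Msmo1, an oxidase of sterol demethylation, was 2.87 and 3.24 times lower in OVX C5 and TAM C35 than the median of the others, and Hsd17b7, a reductase of the same stage, was 3.30 and 3.79 times lower. For Fdps, which makes farnesyl diphosphate, the ratio was 3.56 and 3.13, and for Idi1, the isomerase before it, 2.06 and 2.46. Steps with a smaller ratio were Fdft1 (1.33 and 1.43), the first enzyme committed to sterols, Nsdhl (1.49 and 1.64) and Tm7sf2 (1.55 and 1.82). Of the exon bases of Fdft1, 18.3% overlap Ctsb on the opposite strand, and 12.1% of those of Tm7sf2 overlap Vps51 on the same strand. For Hmgcs1, 12.1% overlap a gene on the opposite strand. The part of these overlaps in the ratios was not tested. Outside the enzymes, 3 genes of sterol sensing and 2 of uptake and efflux were below every other library of the group in both. They were the sterol carrier Stard4 (28.5 and 28.7 CPM, against 73.6 to 104 CPM and 66.1 to 100 CPM), Srebf2 (1.96 and 1.61 times lower than the median of the others), Scap (1.22 and 1.23), Abcg1 (2.61 and 2.23) and Soat1 (1.67 and 1.30), so that Srebf2, Scap and Abcg1, called higher with E4, had their lowest OVX value in OVX C5. In contrast, Nr1h3, Nr1h2, Npc2, Mylip (the ligase that degrades lipoprotein receptors) and Srebf1 were above every other library of the group in both.

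**Figure D3:**
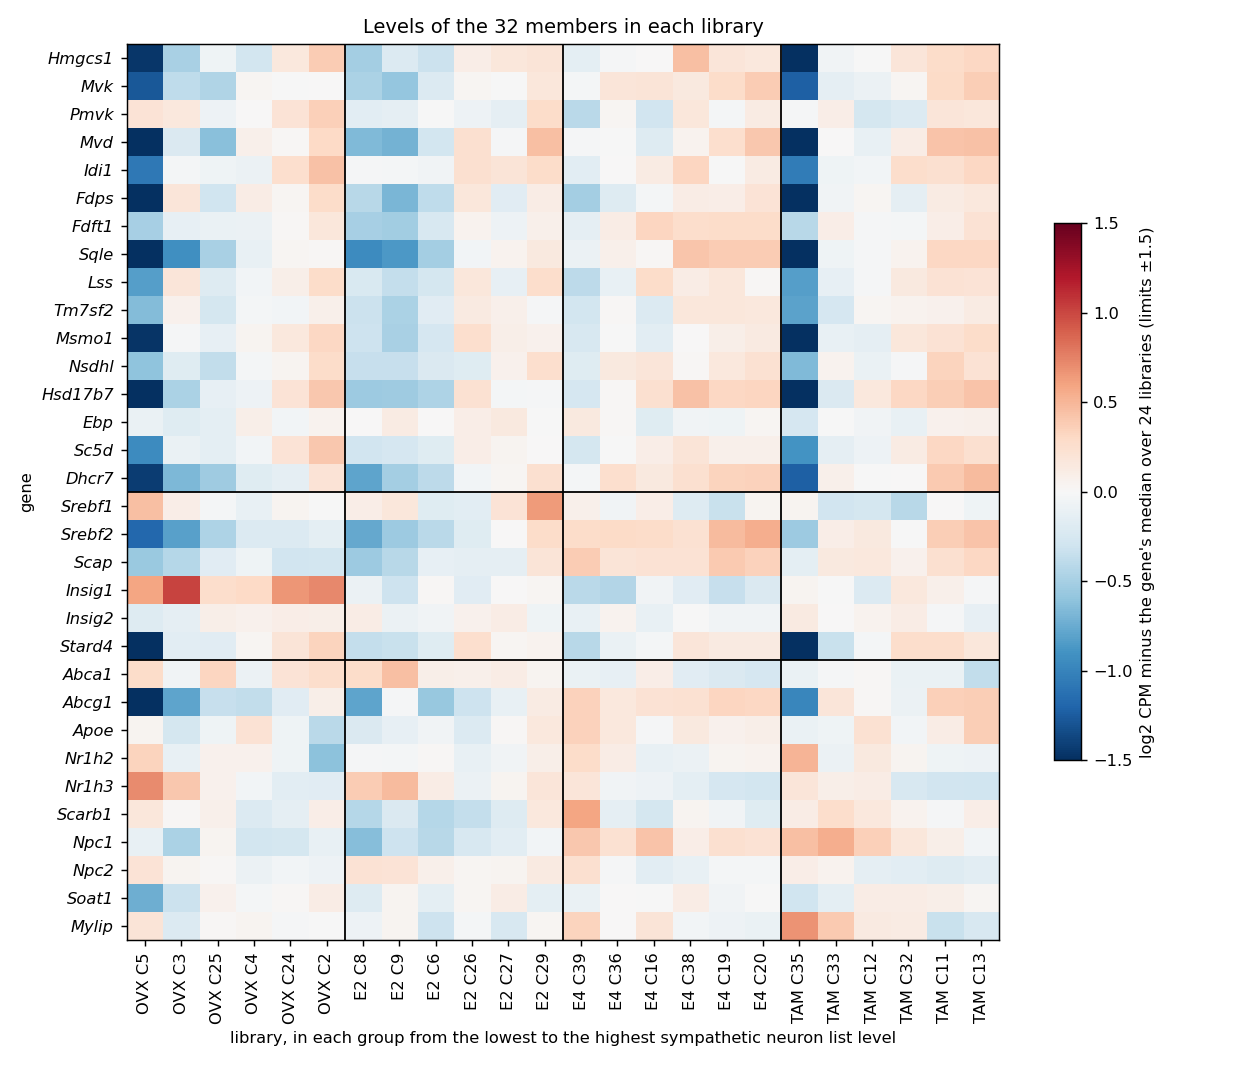
Log2 CPM of each of the 32 genes minus its median over 24 libraries, with colour limits at 1.5, libraries ordered in each group by neuron level and lines between gene groups. OVX C5 and TAM C35 are the lowest of their groups for 14 of the 16 enzymes (share over all genes not counted). The row of Insig1 is highest in OVX.

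The relation to the neuron level was then fitted across all genes within groups, a test chosen after these values were seen. The slope is the change in log2 expression per unit of neuron level. Of the 32 genes, 19 had a positive slope at an adjusted p under 0.05 over 24 libraries, against 24.6% of all genes, and 4 a negative slope, against 17.7%. Without OVX C5 and TAM C35, 19 were positive, against 18.3% of all genes, and 2 negative, against 11.6%. A called slope of either sign was thus common in these libraries.

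Among the 16 enzymes, 14 slopes were positive and called over 24 libraries and 15 without the 2 libraries, Ebp being the exception in both and Pmvk in the first. Their median was 0.20 over 24 libraries and 0.40 without the 2, beside -0.01 and -0.02 over all genes tested. The steepest was that of Sqle, 0.36 (SE 0.03, adjusted p = 3.97e-10) over 24 libraries and 0.80 (SE 0.06, adjusted p = 2.25e-10) without the 2. Dhcr7 (0.66, SE 0.06), Mvd (0.67, SE 0.10), Hsd17b7 (0.60, SE 0.09), Hmgcs1 (0.52, SE 0.08) and Mvk (0.50, SE 0.06) followed without the 2 libraries, with adjusted p between 2.47e-09 and 3.95e-05. Because slopes over 24 libraries are set largely by OVX C5 and TAM C35, those without them describe the narrower range of the remaining libraries.

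**Figure D4:**
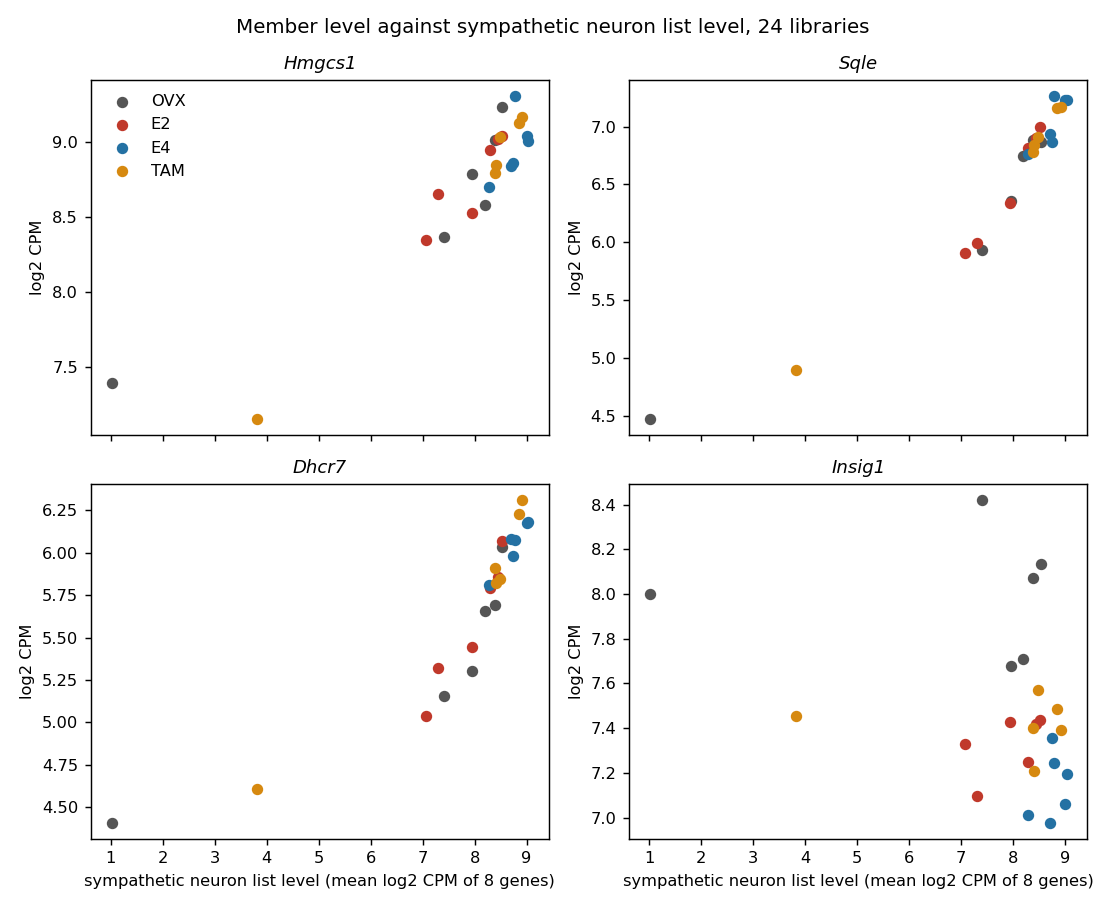
Log2 CPM of Hmgcs1, Sqle, Dhcr7 and Insig1 against the neuron level (mean log2 CPM of 8 genes), with 1 point per library coloured by group. The 3 enzymes rise with the neuron level (slopes 0.52, 0.80 and 0.66 without the 2 libraries at the left), and Insig1 is split by group instead (slope 0.04).

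In sterol sensing, Srebf2 (0.58, SE 0.06), Stard4 (0.44, SE 0.08) and Scap (0.29, SE 0.06) had positive slopes without the 2 libraries, with adjusted p = 5.02e-08, 0.000167 and 0.00139. Insig1 (0.04, SE 0.10), Insig2 (0.05, SE 0.05) and Srebf1 (0.09, SE 0.10) were not called. Among the genes of uptake and efflux, Abcg1 rose (0.39, SE 0.10, adjusted p = 0.00571), and Nr1h3, which encodes LXRα (-0.39, SE 0.06, adjusted p = 3.68e-05), and Npc2 (-0.13, SE 0.05, adjusted p = 0.0385) fell. Abca1 (-0.13), Apoe (0.10), Scarb1, the receptor for high-density lipoprotein (-0.02), Npc1 (0.13) and Soat1 (0.15) were not called. Of the 7 genes called with E4 against vehicle, Srebf2, Scap, Dhcr7 and Abcg1 thus had positive slopes on the neuron level, and Insig1, Npc1 and Abca1 had none that passed.

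**Figure D5:**
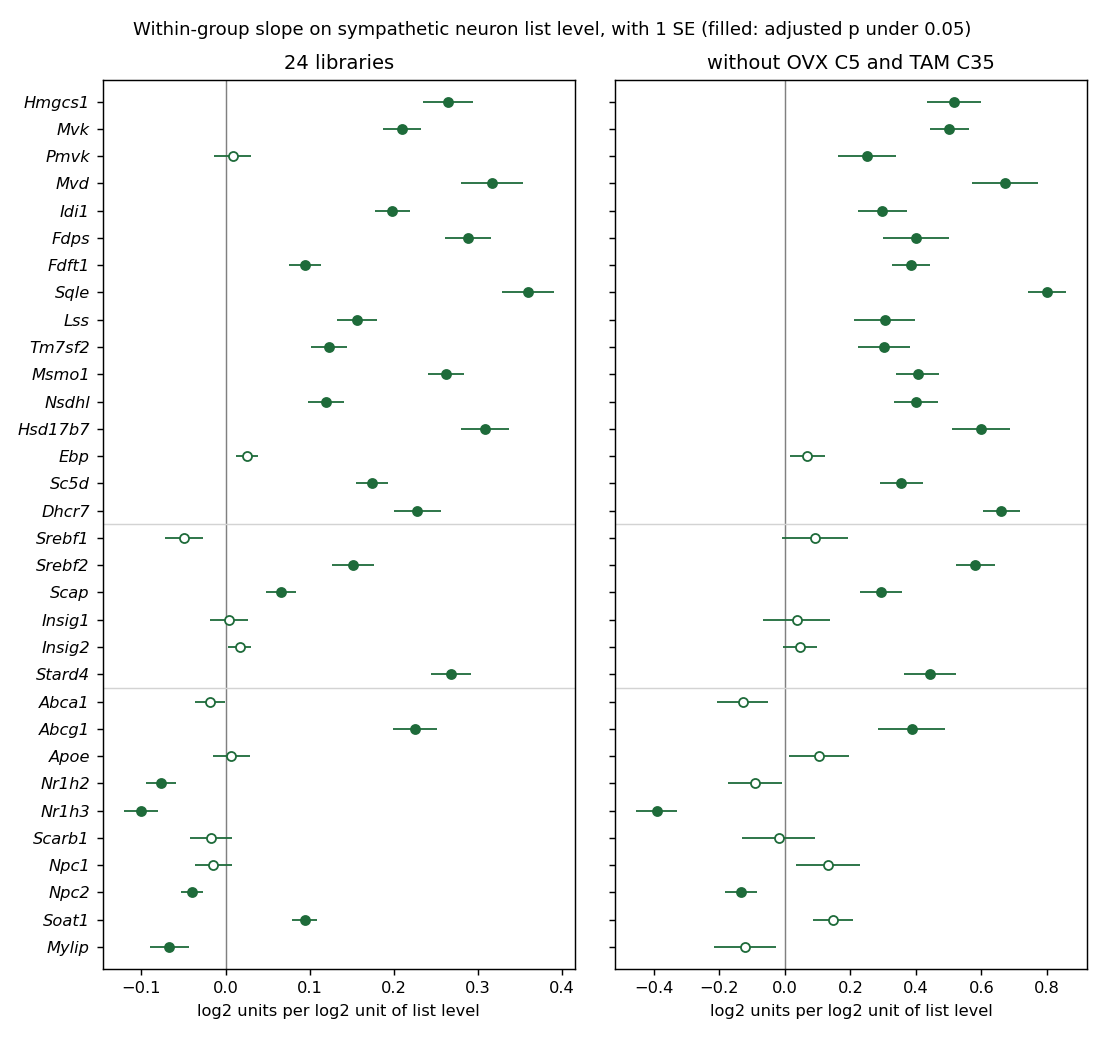
Slope of log2 expression on the neuron level within groups for the 32 genes, over 24 libraries and without OVX C5 and TAM C35, with 1 SE and filled where the adjusted p is under 0.05. The upper block of 16 enzymes is filled on the right of 0 in 14 and 15 rows, and the horizontal scales differ between panels.

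The list of 7 Schwann and satellite glial genes, a cell type of the same nerves that makes much cholesterol for myelin, was not low in TAM C35 (level 7.50, within the range of the other TAM libraries), and it was 6.74 in OVX C5 against 7.03 to 7.82 in the others. On this level, none of the 32 slopes passed edgeR's test over 24 libraries, against 1.03% of all genes with a positive and 0.0678% with a negative slope. Without the 2 libraries the slopes of Abcg1 and Npc1 passed and were positive, against 1.54% positive and 0.218% negative over all genes. The 2 libraries were high in other lists: all 5 smooth muscle and all 4 skeletal muscle genes of TAM C35 (skeletal muscle, summed level 242 CPM against 56.6 to 87.3 CPM), all 5 macrophage genes of OVX C5 (365 CPM against 203.6 to 248.7 CPM) and 5 of its 6 adipocyte genes (3711 CPM against 1533 to 2575 CPM), and all 5 fibroblast genes of both, were above every other library of the group. In TAM C35, 2 of the 5 macrophage, 4 of the 5 B cell and 3 of the 6 adipocyte genes were. So were 4 of the 5 endothelium genes in each library. Their summed level was 671 CPM in OVX C5 against 415 to 538 CPM, and 886 CPM in TAM C35 against 418 to 633 CPM. The part of these cells in the levels of the LXR and efflux genes there was not tested.

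Other genes of the pathway were read from 5 lists with 38 genes. Against vehicle, 3 were called higher and 0 lower with E2, 5 higher and 4 lower with E4, and 1 higher and 1 lower with TAM. With E4 these were 13.2% and 10.5% of the list, near the shares of all genes, with E2 7.89% higher, above the share of all genes, and with TAM 2.63% in each direction. Among 9 fatty acid genes driven by SREBP-1, only Acss2, the cytosolic acetyl-CoA synthetase, was called with E4 against vehicle (-0.73, SE 0.23, adjusted p = 0.0299).

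Among 5 accessory genes, the electron donors Por (0.57, SE 0.11, adjusted p = 0.003) and Cyb5r3 (0.47, SE 0.10, adjusted p = 0.00551) rose with E4, and Cyb5r3 rose with TAM (0.38, SE 0.10, adjusted p = 0.0402). Among 8 oxysterol and LXR genes, Apoc1, an apolipoprotein, fell with E4 (-0.99, SE 0.20, adjusted p = 0.00402) and with TAM (-0.72, SE 0.19, adjusted p = 0.047), and Smpdl3a fell with E4 (-0.30, SE 0.10, adjusted p = 0.0323). Pltp, the phospholipid transfer protein, rose with E2 (0.65, SE 0.17, adjusted p = 0.0336).

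Among 10 genes of lipoprotein uptake and sterol transfer, the receptor Lrp1 rose with E2 (0.57, SE 0.13, adjusted p = 0.0125) and with E4 (0.46, SE 0.13, adjusted p = 0.0171). The macrophage scavenger receptor Msr1 rose with E2 against vehicle (0.65, SE 0.17, adjusted p = 0.0313), and it was lower with E4 than with E2 (-1.04, SE 0.17, adjusted p = 0.00135) and with TAM than with E2 (-1.05, SE 0.15, adjusted p = 0.000102). It was the one gene of the 38 past a log2 fold change of 1, and the macrophage list, given above for E2, moved with it. Osbp, a sterol exchanger, rose with E4 (0.29, SE 0.08, adjusted p = 0.017), and Gramd1a fell (-0.24, SE 0.07, adjusted p = 0.0242).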

How the data were processed

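RNA from 24 mouse carotid arteries (6 per group) was made into TruSeq stranded mRNA libraries and sequenced as pairs on a NovaSeq. Per the labels and the submitters' processing notes, the authors used bcl2fastq 2.17, Trim Galore, Bowtie2 and featureCounts on GRCm38 and deposited expected counts per Ensembl gene, of which 8.87% to 9.80% per library carry decimals, as fractional counting gives. Whether counting used strand is not given in the sources used here. Here, these deposited estimated counts were rounded to whole numbers (0.5 upwards), scaled by TMM and tested with edgeR 4.0.16 (quasi-likelihood test, Benjamini-Hochberg adjustment over all genes, default low-count filter) in R 4.3.3. OVX, E2 and E4 formed 1 fit of 18 libraries with 24669 genes, and comparisons with TAM used all 24 libraries and 25056 genes. An adjusted p under 0.05 was a call, as was, separately, one with a log2 fold change over 1 in size. DESeq2 1.42.0 was an alternative. Scripts were tested on simulated data. All 32 genes are named, those called in a comparison with values per group, and at most 4 called genes of each neighbouring list. Some genes of the lists are not reported here. The genes and lists were chosen with earlier results of these data known. Groups came from titles. No pair of libraries held identical values, and p-values measure the spread between mice only as far as each library is 1 mouse, as its animal number implies.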

Additional observations from a re-analysis of the deposited data

Results flagged for a closer look

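In 132 groups of 6 values (32 genes and the neuron level in 4 groups), 14 had a highest or lowest library set apart from the others by a larger share of the group's range than Dixon's critical value, where chance gives about 1 in 20, or 6.6. TAM C35 and OVX C5 account for 9 of them. In TAM C35 the lowest values were those of Hmgcs1 (142 CPM, others 444 to 573), Fdps (5.62, others 15.6 to 19.2), Sqle (29.7, others 110 to 144), Msmo1 (44.6, others 117 to 156) and the neuron level (3.81, others 8.39 to 8.92), and the highest was Nr1h2 (88.3 CPM, others 58.3 to 68.4). In OVX C5, Msmo1 (46.2 CPM, others 118 to 159) and the neuron level (1.01, others 7.41 to 8.54) were lowest, and Srebf1 (207 CPM, others 141 to 162) was highest.

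The other 5 were in 3 further libraries. E2 C29 was highest for Pmvk (75.7 CPM, others 56.1 to 62.5) and Scarb1 (42.8 CPM, others 28.5 to 33.6). E4 C39 was highest for Scarb1 (57.6 CPM, others 32 to 39.3) and Npc2 (373 CPM, others 284 to 313). TAM C13 was lowest for Abca1 (77.8 CPM, others 93.4 to 101).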

How the results depend on the processing

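The sign of all 17 called fold changes of the 32 genes held in each alternative run, and the call was kept in 414 of 569 recomputed values. The number of the 32 called moved by over 1.5 times as follows, beside 1 for E2 against OVX, 7 for E4 against OVX, 3 for TAM against OVX, 4 for E4 against E2 and 2 for TAM against E2. With animals numbered up to 20 alone, it was 0, 3 and 0 for E2, E4 and TAM against OVX (191, 661 and 1 of all genes, beside 956, 5348 and 558). With animals numbered above 20 alone, it was 0, 1 and 0 against OVX (237, 126 and 0 of all genes) and 0 for both others (0 and 115, beside 2690 and 1604); these fits have 2 to 4 libraries a group. With only the 2 groups in the fit, it was 0 for TAM against OVX, 7 for E4 against E2 and 1 for TAM against E2, and over all genes 39, 5256 and 1158. The B cell level as a covariate gave 0 for E4 against OVX, TAM against OVX and E4 against E2 and 1 for TAM against E2 (41, 12, 152 and 1002 of all genes); the adipocyte level gave 2 for E4 against OVX and 1 for E4 against E2 (1034 and 684); the glial level, chosen after seeing the data, gave 4, 1, 0 and 1 for E4 against OVX, TAM against OVX, E4 against E2 and TAM against E2 (1788, 90, 158 and 573). No filter gave 2 for E4 against E2 and 1 for TAM against E2 (1643 and 1160). For TAM against E2, relative log expression scaling and the number series as a covariate gave 1 (1561 and 1681), DESeq2 gave 4 (2253), and the neuron level as a covariate and leaving out OVX C5 and TAM C35 each gave 5 (3360 and 3332). With each library left out in turn, the number ranged from 1 to 1 for E2 against OVX, 4 to 8 for E4 against OVX, 1 to 4 for TAM against OVX, 2 to 6 for E4 against E2, 1 to 4 for TAM against E2 and 0 to 0 for TAM against E4. Over all genes the calls ranged, in the same order, from 710 to 1294, 3062 to 6012, 76 to 876, 1130 to 5340, 1008 to 2046 and 63 to 118. The cause of these shifts was not tested. No paired analysis was possible because animal numbers differ in every group.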
